A study of Drosophila melanogaster with 18 samples.

Results

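S2 cells are an embryonic *Drosophila* line with traits of haemocytes, the blood cells of the fly. The 10 genes described here were chosen by name as genes of haemocyte identity and phagocytosis, with earlier results of these data known. All 10 were found among the 15602 genes of the mRNA table. They are the phagocytic receptor genes *drpr*, *eater*, *NimC1*, *crq* and *Sr-CI*, the genes of secreted proteins *Hml* and *Pxn*, and the transcription regulator genes *srp*, *ush* and *lz*. The mRNA was measured by RNA-seq in S2 cells that had received no double-stranded RNA, before heat shock (non-HS [NHS]) and after 30 min of HS. For HS, an equal volume of warmer medium without serum was added and the culture was kept at 37°C. There were 2 biological replicates in each of the 2 conditions, 4 libraries in all. All come from 1 cell line. The methods do not say whether the NHS cultures also received medium.

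Haemocytes of the fly fall into plasmatocytes, which engulf microbes and dying cells, crystal cells, which carry out melanization, and lamellocytes, which encapsulate parasites. The GATA factor Serpent (*srp*) is needed for the blood cell fate, U-shaped (*ush*) is a cofactor that binds GATA factors, and the RUNX factor Lozenge (*lz*) directs the crystal cell fate. Draper (*drpr*) and the scavenger receptor Croquemort (*crq*) take part in the clearance of dying cells. Eater (*eater*) and NimC1 (*NimC1*), both of the Nimrod family, and the scavenger receptor Sr-CI (*Sr-CI*) bind bacteria. Hemolectin (*Hml*) is a clotting protein and a plasmatocyte marker, and Peroxidasin (*Pxn*) is an enzyme that cross-links the collagen of basement membranes.

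Levels are given as FPKM (fragments scaled for transcript length and sequencing yield), so that genes can be set beside each other. FPKM are relative, and a loss shared by all mRNAs cannot be read from them. In such bulk RNA, fewer cells of a kind and less RNA per cell cannot be told apart. The FPKM of a library summed to between 831628 and 926922. Read depth is not recorded in FPKM, but low values placed the relative depths of the other 3 libraries roughly at 60.1% to 77.0% of that of NHS replicate 1. Only 28.9% to 30.6% of the 418 to 578 genes with low values that were compared lay at the ratio used. These depths also carry any scaling between libraries by Cuffnorm, which is not stated. Pearson's r of log2(FPKM + 1) across the 7815 tested genes was 0.963 for the NHS pair and 0.966 for the HS pair. These coefficients are across genes, which share their libraries, and have no p. As many as 3864 genes had a listed value of 0 in every library, and a 0 is therefore given only as listed.

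In NHS cells, 7 of the 10 genes had a mean of at least 10 FPKM, and the other 3, *Sr-CI*, *lz* and *NimC1*, stayed under 1 FPKM in every library. The highest was *Pxn*, with a mean of 122 ± 22.0 FPKM (SD, n = 2), which ranked 850 of the 15602 genes. *crq* came next at 111 ± 29.5 FPKM (SD, n = 2) and rank 940. The NHS ranges of these genes overlapped, although *Pxn* was above *crq* within each of the 4 libraries. *ush* had a mean of 74.3 ± 7.26 FPKM, *srp* of 60.6 ± 3.61 FPKM and *drpr* of 37.7 ± 2.95 FPKM (SD, n = 2 each). Each of these lay clear of its neighbours in the order, in both NHS libraries. *eater*, at 14.5 ± 4.50 FPKM, and *Hml*, at 14.1 ± 11.9 FPKM (SD, n = 2 each), could not be ordered against each other. The median NHS level over the whole table was 0.678 FPKM, and 82.5% of its genes had a lower NHS mean than *drpr*. The plasmatocyte receptor gene *NimC1* and the crystal cell regulator gene *lz* were thus at or near 0 in a line that held *srp* and *ush* mRNA. Other transcription factor genes of haemocyte fate were mostly low. Of 10 in the table, 7 stayed under 1 FPKM in every library and 3 had an NHS mean of at least 1 FPKM.

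**Figure D1:**
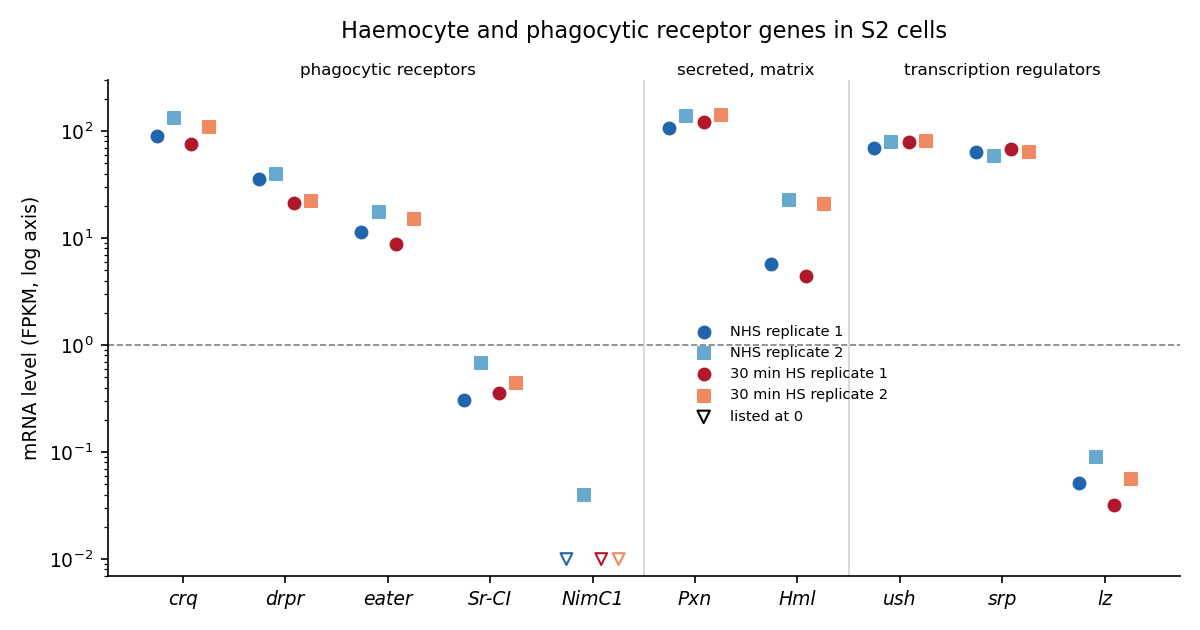
Level of each of the 10 genes in each of the 4 libraries, in FPKM on a log axis. Circles are replicate 1 and squares replicate 2, blue for NHS and red for 30 min HS. Open triangles mark libraries in which a gene is listed at 0, and the dashed line is 1 FPKM. *Sr-CI*, *NimC1* and *lz* lie under the line in every library, and *Hml* splits by replicate and not by condition.

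HS and NHS libraries were compared for genes that averaged 1 FPKM or more, on the log2(FPKM + 1) scale, with limma fitted to all 7815 of them. Calls were made at an adjusted p (Benjamini-Hochberg) under 0.05. Of the 10 genes, 7 passed this minimum, and 1 of them, *drpr*, was called and was lower after HS. The other 6 were not called. Over all tested genes 3.31% were called, 1.56% as lower and 1.75% as higher, so that 1 call among 7 genes is a small number to set beside this background. At an adjusted p under 0.001, the FDR of the study, none of the 7 was called in limma, where 0.128% of all genes were. At an unadjusted p under 0.05 there was again 1, *drpr*, where 17.9% of all tested genes passed, 10.5% as lower and 7.42% as higher. The fitted values of 4 genes lay below 0 and those of 3 above it. Their median log2 fold change was -0.21, beside -0.017 over all tested genes. It turned to 0.065 without NHS replicate 2 and to 0.079 without HS replicate 1, and was -0.52 without NHS replicate 1 and -0.51 without HS replicate 2.

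**Figure D2:**
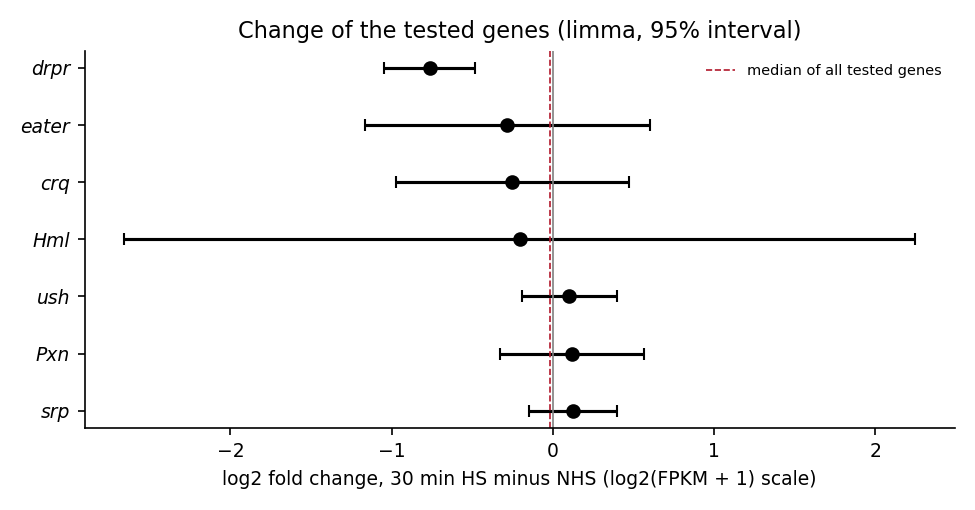
Log2 fold change of the 7 tested genes, 30 min HS minus NHS, on the log2(FPKM + 1) scale. Points are limma estimates over 2 libraries against 2, bars are 95% intervals, and the dashed line is the median of all tested genes. The interval of *drpr* lies below 0, those of the other 6 genes cross 0, and that of *Hml* is the widest of the 7.

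Among the receptors, *drpr*, the engulfment receptor gene, measured 35.6 and 39.8 FPKM in NHS cells, against 21.4 and 22.1 FPKM after HS. Both HS libraries were below both NHS libraries, as they were for 25.6% of all tested genes. The mean fell from 37.7 ± 2.95 to 21.8 ± 0.544 FPKM (SD, n = 2 each), a ratio of 0.577. The change was -0.76 on the log2 scale (standard error 0.11, 95% interval -1.05 to -0.48), with an adjusted p of 0.046 in limma. The call lay just inside the threshold. It was lost without any 1 of the 4 libraries (adjusted p from 0.21 to 0.29, log2 fold changes from -0.84 to -0.69), with quantile normalization (adjusted p = 0.067) and without a variance trend (0.054). Ordered from the most negative fold change, *drpr* ranked 314 of the 7815 tested genes. The exons of *drpr* overlap on the same strand with *Oseg4*, which was under 0.1 FPKM in every library.

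*crq*, the scavenger receptor gene for dying cells, measured 89.7 and 131 FPKM in NHS cells, against 75.9 and 109 FPKM after HS. The conditions overlapped, and replicate 2 was the higher in each. Its log2 fold change was -0.25 (standard error 0.27, 95% interval -0.97 to 0.47, adjusted p = 0.73 from limma). *eater*, the receptor gene for bacteria, stood at 11.3 and 17.7 FPKM before HS and at 8.74 and 14.9 FPKM after it. It had the same layout, with overlapping conditions and a higher replicate 2. Its log2 fold change was -0.28 (standard error 0.33, 95% interval -1.16 to 0.60, adjusted p = 0.76). The exons of *crq* overlap on the opposite strand with *ex*, which stood at 40.5 to 49.9 FPKM. For *crq* and *eater*, the intervals include changes as large as that of *drpr*, and whether *drpr* differed from them was not tested. *Sr-CI* was low, at 0.308 and 0.680 FPKM before HS and 0.358 and 0.445 FPKM after it. *NimC1* was listed at 0 in 3 libraries and at 0.0399 FPKM in NHS replicate 2. Neither reached the minimum for testing, and an exact permutation test of 2 libraries against 2 cannot give a two-sided p below 0.333.

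*crq* made up most of the receptor mRNA. Of the summed FPKM of the 5 receptor genes, it took 65.5% and 69.3% before HS, against 71.3% and 74.5% after it. *drpr* took 26.0% and 21.0% before HS and 20.1% and 15.1% after it. The share of *drpr* was therefore lower in both HS libraries than in either NHS library, and that of *crq* was higher. The shares add up to a whole, so they are not independent of each other. *eater* held 8.25% and 9.32% before HS and 8.22% and 10.2% after it. The ratio of *drpr* to *crq*, which does not depend on the scaling of a library, was 0.397 and 0.303 in NHS cells and 0.282 and 0.202 after HS. Both HS values lay below both NHS values, and replicate 2 was the lower in each condition. The nearest values of the conditions, 0.303 and 0.282, were closer than the 2 replicates of either condition. Of all tested genes, 25.6% were lower after HS without overlap. How many other ratios or shares separate in this way was not counted. The sum itself was 137 and 190 FPKM before HS, against 106 and 147 FPKM after it, so that it overlapped between conditions.

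**Figure D3:**
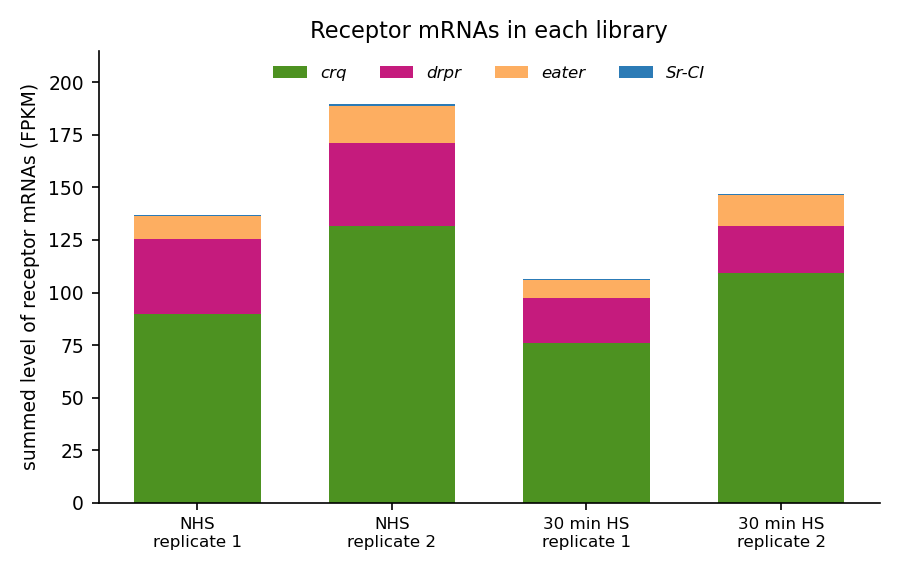
Stacked levels of the receptor mRNAs in each library, in FPKM, from the bottom *crq*, *drpr*, *eater* and *Sr-CI*. *NimC1*, listed at 0 in 3 libraries, is not drawn. *crq* holds 65.5% to 74.5% of the sum, and the band of *drpr* is narrower in the 2 HS libraries.

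The genes of secreted proteins were not called. *Hml* measured 5.69 and 22.5 FPKM in NHS cells, against 4.45 and 20.7 FPKM after HS. Replicate 2 was thus 3.95 times replicate 1 before HS and 4.65 times after it, while the conditions overlapped. Of the 2842 tested genes with a mean level within 2-fold of that of *Hml*, 1.41% had a larger gap in the NHS pair and 1.16% in the HS pair. Its log2 fold change was -0.21, with a standard error of 0.91 and a 95% interval from -2.66 to 2.25 (adjusted p = 0.95 from limma). The value was -1.11 and 0.70 without NHS replicates 1 and 2, and 0.79 and -1.20 without HS replicates 1 and 2. No direction can be read for *Hml* from these libraries. *Pxn* stood at 106 and 137 FPKM in NHS cells and at 122 and 141 FPKM after HS, with overlapping conditions. Its log2 fold change was 0.12 (standard error 0.17, 95% interval -0.33 to 0.56, adjusted p = 0.82), and it turned below 0 with libraries scaled to equal totals, scaled to the ribosomal protein mRNAs, or without NHS replicate 1. *CG16986*, at 69.6 to 71.1 FPKM, overlaps *Pxn* on the opposite strand. The authors' alignment was set to use strand, but whether Cuffnorm counted by strand is not stated in these sources. On the same strand, exons of *Pxn*, *srp* and *ush* overlap the noncoding RNA genes *lncRNA:CR45660*, *lncRNA:CR44133* and *lncRNA:CR46258*, in that order. These genes are not in the mRNA table, so reads from them cannot be set apart.

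**Figure D4:**
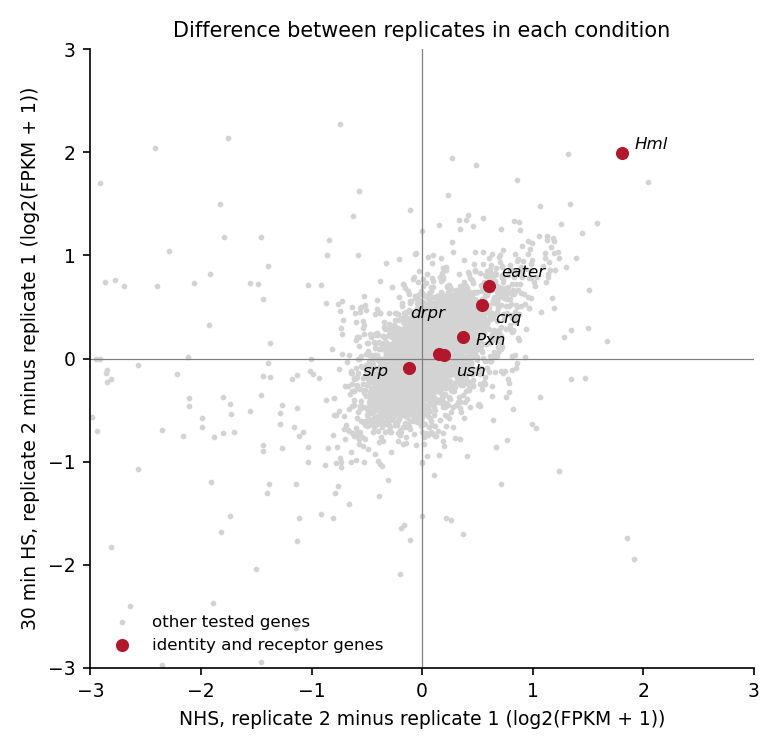
Difference between replicate 2 and replicate 1 in NHS cells (x axis) and after 30 min of HS (y axis), on the log2(FPKM + 1) scale, for the 7 tested genes (red) and the other tested genes (grey, 114 genes beyond 3 on an axis not drawn). *Hml* lies at 1.81 and 1.99, far from most genes, while *drpr*, *srp* and *ush* lie within 0.2 of 0 on both axes.

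Both regulators of blood cell fate that were tested were not called. Of the tested genes with a mean within 2-fold of theirs, 56.0% had a larger gap in the NHS pair than *srp* and 34.5% a larger one than *ush*. *srp* measured 63.2 and 58.1 FPKM in NHS cells, against 68.3 and 64.1 FPKM after HS. Both HS libraries were above both NHS libraries. The log2 fold change was 0.12 (standard error 0.10, 95% interval -0.15 to 0.40, adjusted p = 0.64 from limma), and it was not above 0 with equal totals (-0.022) or with scaling to the ribosomal protein mRNAs (-0.11). *ush* stood at 69.2 and 79.4 FPKM before HS and at 78.8 and 80.4 FPKM after it, with overlapping conditions. Its log2 fold change was 0.10 (standard error 0.11, 95% interval -0.19 to 0.40, adjusted p = 0.74), and it also turned below 0 in those scalings (-0.046 and -0.14). The intervals of *srp* and *ush* leave out both a fall and a rise of 0.5 on the log2 scale. That of *crq* includes such a fall but not the rise, that of *Pxn* the rise but not the fall, and those of *eater* and *Hml* include both. The ratio of *srp* to *ush* was 0.914 and 0.731 in NHS cells and 0.867 and 0.796 after HS, inside the range of the NHS replicates. *lz* was listed at 0.0518 and 0.0896 FPKM before HS and at 0.0323 and 0.0561 FPKM after it, too low to be tested. Of the 7 tested genes, *drpr* and *srp* were the 2 whose libraries did not overlap between conditions, where 46.1% of all tested genes did not overlap, 25.6% as lower and 20.5% as higher.

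Lists of related genes were read from the same fit. These lists too were written with earlier results of these data known. Of 24 other phagocytic receptor and opsonin genes in the table, 8 were tested and none was called in limma, while 0 were above and 3 below at p under 0.05 before adjustment, beside 7.42% and 10.5% of all tested genes (median log2 fold change -0.10). *Tep4*, a thioester protein gene and the most abundant of them, stood at 252 and 308 FPKM in NHS cells and at 177 and 201 FPKM after HS (log2 fold change -0.56, adjusted p = 0.14 from limma). *Dscam1*, a receptor gene with many splice forms, stood at 84.3 and 127 FPKM before HS and 82.1 and 131 FPKM after it. It showed the layout of *crq* and *eater*, with a higher replicate 2 in each condition. The integrin gene *Itgbn* had the largest change of the list at a mean of at least 5 FPKM (log2 fold change -0.62, adjusted p = 0.16). Of 9 other Nimrod genes, 8 stayed under 1 FPKM in every library, as *NimC1* did, and 6 of the 7 other scavenger receptor genes did the same.

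Of 20 genes of engulfment signalling and phagosomes in the table, all 20 were tested and none was called in limma, while 1 was above and 4 were below at p under 0.05 before adjustment. Over all tested genes 17.9% passed that level in either direction. The fitted values of 15 lay below 0 and of 5 above it (median log2 fold change -0.15). The largest change was that of *mbc*, which encodes an activator of Rac in engulfment. It stood at 73.7 and 91.5 FPKM before HS and at 32.1 and 42.2 FPKM after it. For *mbc*, both HS libraries lay below both NHS libraries, as they did for 25.6% of all tested genes. Its log2 fold change of -1.14 (standard error 0.19) missed the threshold with an adjusted p = 0.064 from limma, and it was called in 4 of the 11 fits that kept all libraries. *Cdc42* and *Rab7*, GTPase genes of the actin cytoskeleton and of phagosome maturation and the most abundant of the list, had log2 fold changes of -0.14 (adjusted p = 0.64) and -0.40 (adjusted p = 0.31). The 12 tested genes of haemocyte matrix and secreted proteins had 0 calls in limma, and 0 at an unadjusted p under 0.05 (17.9% over all tested genes), with a median of 0.032. The most abundant, the collagen-binding *SPARC* and the growth factor gene *Idgf6*, had log2 fold changes of 0.040 and 0.00 (adjusted p = 0.91 and 1.0), and *Idgf1* had the largest, at -0.50 (adjusted p = 0.35).

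Among 17 other regulators of haemocyte fate, 9 were tested and *jumu*, a forkhead-family transcription factor gene, was called as higher. Before adjustment, 1 gene of this list lay above and 3 below at p under 0.05 (7.42% and 10.5% over all tested genes), and the median was -0.099. *jumu* stood at 20.1 and 16.0 FPKM in NHS cells and at 45.3 and 38.1 FPKM after HS (log2 fold change 1.17 with a standard error of 0.16, adjusted p = 0.046 from limma). The call was lost without any 1 library (adjusted p from 0.15 to 0.25) and held in 6 of the 11 fits with all libraries. *Pvf2*, a ligand gene of the receptor *Pvr*, stood at 278 and 218 FPKM before HS and at 134 and 76.8 FPKM after it (log2 fold change -1.27, adjusted p = 0.13). *pnr*, another GATA factor gene, changed by -0.42 on that scale, which did not pass (adjusted p = 0.11). Of 6 tested crystal cell and lamellocyte markers, *ItgaPS4*, an integrin gene, was called as lower. At an unadjusted p under 0.05, 0 were higher and 4 lower, beside the same 7.42% and 10.5%. The fitted values of 5 lay below 0 and of 1 above it (median log2 fold change -0.50, beside -0.017 over all tested genes). *ItgaPS4* stood at 12.7 and 13.4 FPKM before HS and at 6.02 and 6.39 FPKM after it (log2 fold change -0.96, standard error 0.11, adjusted p = 0.031), and its call too was lost without any 1 library (0.18 to 0.24). Also in this list, *mys* and *cher*, an integrin and a filamin gene that many tissues use, had log2 fold changes of -0.34 and -0.65 (adjusted p = 0.13 and 0.098). The crystal cell markers in the table summed to between 2.08 and 2.81 FPKM in each library, with *PPO2* the highest at a mean of 1.75 FPKM in NHS cells. The lamellocyte markers summed to between 597 and 816 FPKM. Most of this sum came from *mys*, *cher* and *msn*, with NHS means of 364, 249 and 175 FPKM, so it does not measure lamellocyte character. Of the other lamellocyte markers, *PPO3* stood at 12.7 and 15.4 FPKM before HS and at 8.06 and 5.91 FPKM after it (log2 fold change -0.93, adjusted p = 0.098 from limma). *atilla* stayed under 1 FPKM in every library.

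Of 18 markers of muscle, neurons and glia, germline and fat body in the table, 15 were under the minimum for testing and the 3 tested had 0 calls in limma, with 1 above and 1 below at p under 0.05 before adjustment (7.42% and 10.5% over all tested genes). The 6 fat body markers summed to between 0.0653 and 1.32 FPKM in a library. The muscle markers summed to 12.9 to 22.7 FPKM, of which all but *Mef2* stayed under 1 FPKM. *Mef2* (log2 fold change -0.56, adjusted p = 0.22 from limma) and the neuronal gene *elav* (0.25, adjusted p = 0.47) were the 2 most abundant. All neuron and glia markers but *elav* stayed under 1 FPKM in every library. The summed level of this list was 33.0 and 28.5 FPKM before HS and 30.3 and 27.9 FPKM after it, and its part in the values above was not tested. The defining muscle gene *Mhc* was at 0.0145 FPKM or less in every library.

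**Figure D5:**
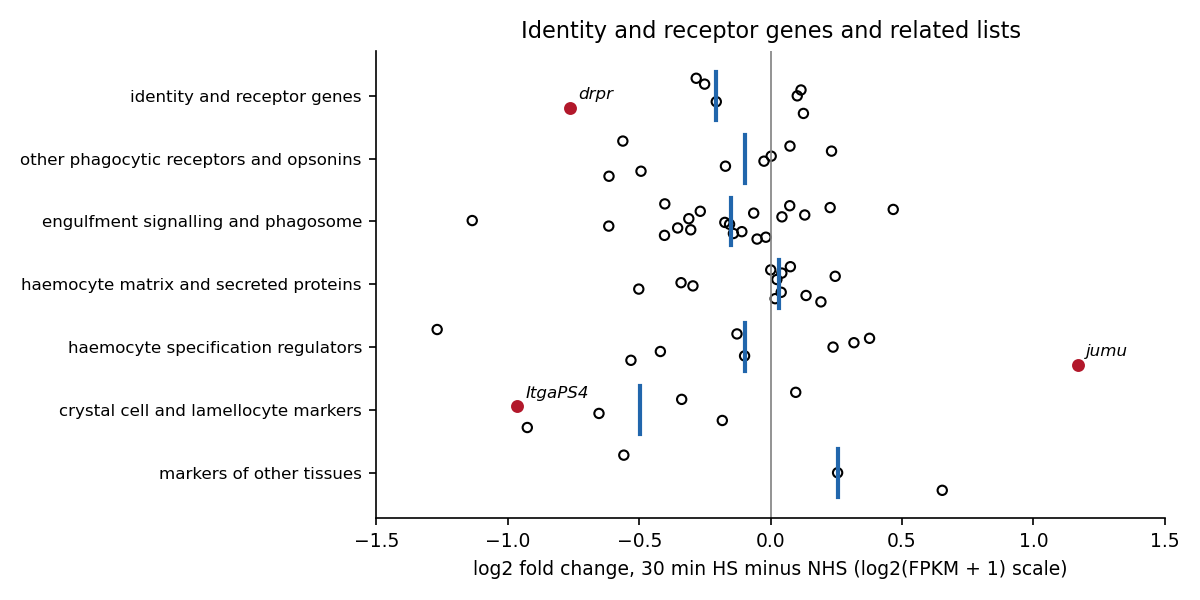
Log2 fold change, 30 min HS minus NHS, of each tested gene, with the identity and receptor genes in the top row and the related lists below. Filled red points passed an adjusted p of 0.05 from limma and open points did not. Blue bars are list medians. The called genes are *drpr*, *jumu* and *ItgaPS4*.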

How the data were processed

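The authors clipped adapters, aligned the reads to dm3 with TopHat2 (strand set as fr-firststrand) and deposited FPKM per gene and library from Cuffnorm. Per the labels the tools were the same, without versions. How Cuffnorm scaled the libraries to each other is not stated in these sources. Conditions were taken from the labels and replicate numbers from the column names, with 0 columns left unmapped. The PRO-seq samples were not analysed here.

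Identifiers were paired with symbols by an Ensembl table of the BDGP6 assembly (14925 of 15602). As this is not the build of the files, no coordinates are given. The members and lists were chosen with earlier results of these data known. Genes averaging 1 FPKM or more were tested with limma 3.58.1 in R 4.3.3 (eBayes with trend, condition only, pseudocount 1, Benjamini-Hochberg over 7815 genes). A run on simulated data planted only changes larger than that of *drpr*, with noise independent between libraries, so it cannot speak for that call. The study's DESeq2 test needs counts and was not run. Beside the 10 genes, the text names called genes, the 2 most abundant and the largest change at 5 FPKM or more of each list. Genes outside this rule (*PPO2*, *PPO3*, *atilla*, *msn*, *Mhc*, *Oseg4*, *ex*, *CG16986*, and those named only under the replicate term) were chosen after their values were seen. Of the listed genes, *scb*, *Mcr*, *Src42A*, *uta*, *LanB2*, *trol*, *PPO1*, *vas* and *nos* had no match by identifier and were not used here. Other pseudocounts, filters, scalings, variance settings, a term for the replicate number and fits short of 1 library were tried. Python 3.11.15, numpy 2.4.6, pandas 2.3.3 and matplotlib 3.10.9 were used.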

Additional observations from a re-analysis of the deposited data

How the results depend on the processing

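With 2 libraries per condition, calls near the threshold such as those of *drpr*, *jumu* and *ItgaPS4* are fragile, and FPKM keep no read depth. The number of the 7 genes called was 1, and 0 with quantile normalization, without a variance trend, at an adjusted p under 0.001 and without any 1 library; none was called as higher under any alternative. The log2 fold change of *drpr* was -0.70 with quantile normalization and -0.76 without a variance trend, -0.84 to -0.69 without any 1 library. The median of all genes was -0.16 with equal totals and -0.25 with scaling to the ribosomal protein mRNAs. Relative to these medians *drpr* stood at -0.75 in both.

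The median of the 7 genes was -0.42 with ribosomal scaling and -0.52 to 0.079 without any 1 library. Without any 1 library the log2 fold change ranged from -0.64 to 0.071 for *eater*, from -0.52 to 0.022 for *crq* and from -1.20 to 0.79 for *Hml*, above 0 without NHS replicate 2 or HS replicate 1, and from -0.068 to 0.30 for *Pxn*, below 0 without NHS replicate 1. With equal totals and ribosomal scaling *Pxn* was at -0.032 and -0.12, *srp* at -0.022 and -0.11, and *ush* at -0.046 and -0.14. The cause was not tested.

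Over all genes, 137 were higher and 122 lower. No filter gave 280 higher and a filter of 5 FPKM 60 higher. Equal totals gave 252 lower, ribosomal scaling 451 and robust moderation 190. Without any 1 library there were 16 to 36 higher and 6 to 34 lower.

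Same-numbered libraries share only a number, as no source says what it marks. Their deviations correlated at 0.22 across 7815 genes. With a replicate block, 334 genes were higher and 582 lower (11.7% of all). *drpr* remained the 1 gene of the 7 called (adjusted p = 0.013 from limma), and *crq* had an adjusted p = 0.071. Among the related lists, the block gave calls for 1 higher (*ced-6*) and 4 lower (*mbc*, *Rac2*, *Rab7*, *Ced-12*) of 20 engulfment genes, and for 2 lower of 8 receptors and opsonins (*Tep4*, *pes*). It gave 1 lower of 12 matrix and secreted protein genes (*Idgf3*), 1 higher (*jumu*) and 3 lower (*Pvf2*, *pnr*, *zfh1*) of 9 fate regulators, 3 lower of 6 crystal cell and lamellocyte markers (*ItgaPS4*, *cher*, *mys*) and 1 lower of 3 markers of other tissues (*Mef2*).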

Other observations

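Several of the 7 tested genes differed in the same way between the replicates of both conditions. Replicate 2 was above replicate 1 in both conditions for 6 of the 7 tested genes, and below it for *srp*. Some of these gaps were small. After HS, those of *drpr* and *ush* were 0.049 and 0.030 on the log2 scale. Of the tested genes with a mean within 2-fold of theirs, 83.0% and 90.4% had a larger gap in the HS pair. Over all tested genes, 36.2% had replicate 2 higher in both conditions and 36.2% lower in both. A gap of at least 0.5 on the log2 scale with the same sign in both conditions was seen for 3 of the 7, *Hml*, *eater* and *crq*, and for 3.86% of all tested genes. In a limma fit with terms for condition and replicate number, the replicate term of *Hml* was 1.90 on the log2 scale (95% interval 1.64 to 2.16, adjusted p = 0.032), with replicate 2 higher in 2 of 2 conditions. Such calls were made for 16 of 7815 genes (0.205%). Those of *eater* (0.66, adjusted p = 0.060) and *crq* (0.53, adjusted p = 0.058) missed the threshold.

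Other haemocyte genes differed between replicates as well, in both directions, and were named after their values were seen. *He*, which encodes the blood cell surface protein Hemese, measured 5.97 and 1.09 FPKM in NHS cells, against 5.36 and 1.21 FPKM after HS, so that replicate 1 was the higher where for *Hml* it was the lower. *NimC4*, a Nimrod receptor gene for the clearance of dying cells, had the order of *He*, at 15.3 and 7.86 FPKM before HS and 17.1 and 7.83 FPKM after it. The opsonin gene *Tep2* had that of *Hml*, at 48.9 and 82.0 FPKM before HS and 43.1 and 73.0 FPKM after it. Their replicate terms were -1.63, -0.96 and 0.74 (adjusted p = 0.052, 0.050 and 0.050 from limma), each outside the threshold. *Dscam1*, *LanA*, *Idgf2* and *Tig* also had the order of *Hml*. Their terms were 0.62, 0.64, 0.73 and 0.55 (adjusted p = 0.050, 0.050, 0.052 and 0.052 from limma), again outside the threshold. At an adjusted p of 0.052 or less, *He* and *NimC4* were the only listed genes with replicate 1 higher. The sources do not say whether a number marks a shared culture, passage or day, and the cause was not tested.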
